A study of Mus musculus with 22 samples.

Results

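The type I interferon stimulated genes described here are 36 named mouse genes, taken as a fixed list of names, out of 78298 genes in the count tables; all 36 were found by symbol. The list was drawn up with the behaviour of these genes in the same libraries already known, so the direction of the module is not independent evidence. They comprise 5 IFIT genes (Ifit1, Ifit1bl1, Ifit2, Ifit3 and Ifit3b), 6 OAS genes (Oas1a, Oas1g, Oas2, Oas3, Oasl1 and Oasl2), 9 antiviral effectors (Mx1, Mx2, Rsad2, Cmpk2, Bst2, Eif2ak2, Samd9l, Zbp1 and Xaf1) and 3 genes of the ISG15 pathway (Isg15, Usp18 and Herc6). The other members are 3 transcription factors (Irf7, Irf9 and Stat2), 2 RNA sensors (Ifih1 and Dhx58), Parp9, Parp14, Dtx3l and Trim30a, and Ifi44, Ifi27l2a, Ifi35 and Rtp4. The study asked whether the sex of natural killer (NK) cells, or of the tumour-bearing mouse, bears on the killing of pancreatic cancer cells. It sequenced polyadenylated RNA of spleen NK cells, of the mouse pancreatic cancer line Panc02 and of Panc02 tumours, 22 libraries in 9 groups.

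NK only libraries came from NK cells cultured for 24 h with IL-2, and fresh libraries from sorted, untreated NK cells of the same organ (2 from female and 2 from male donors in each). Allografts were Panc02 tumours grown in mice (4 libraries from female and 4 from male hosts). Co-culture libraries held NK cells of female or male donors with Panc02 and 24 h of IL-2 (2 of each sex), and 2 libraries came from Panc02 cultured without NK cells, for which no treatment is given. No genetic change is named for any group, and age and strain are not given in the labels. Panc02 is a single established line, an allograft contains host cells beside the tumour cells, and the labels do not say that NK and Panc02 RNA were separated after co-culture. The labels give the sex of each donor or host but do not say that each library came from a different animal or culture, and the p-values therefore describe library-to-library spread, which may be partly technical.

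Type I interferons are antiviral cytokines that bind the receptor IFNAR1/IFNAR2 and activate the kinases JAK1 and TYK2. The signal reaches STAT2 and IRF9, which act in the complex ISGF3 and switch on genes that carry an interferon stimulated response element (ISRE) in the promoter. IFITs bind viral RNA, OAS enzymes make the second messenger that activates RNase L, and ISG15 is a ubiquitin-like protein joined to other proteins. Many of these genes also respond to interferon-gamma, the interferon that NK cells secrete, through the gamma-activated site (GAS).

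Promoters of 5 classical members are shown because the ISRE is the feature that defines the response. RefSeq windows (GRCm38.p6, 250 bases before to 50 after a start site) matched 26 of the 36 members. The ISRE core (GAAA, any 2 bases, then GAAA), searched on both strands, was present in 14 of 26 members, or 53.9%, against 3.99% of 27025 genes with such windows. The GAS core TTCNNNGAA was present in 5 of 26 members, 19.2%, against 9.55% of genes; in 1 of 30 member windows a GAS match overlapped an ISRE match. In the sequences here, read 5′ to 3′ along the gene, capitals mark ISRE core matches on either strand. Isg15 (chr4:156200769-156201068, minus strand) held 3 overlapping matches, the first starting at -78 from the start site.
Isg15: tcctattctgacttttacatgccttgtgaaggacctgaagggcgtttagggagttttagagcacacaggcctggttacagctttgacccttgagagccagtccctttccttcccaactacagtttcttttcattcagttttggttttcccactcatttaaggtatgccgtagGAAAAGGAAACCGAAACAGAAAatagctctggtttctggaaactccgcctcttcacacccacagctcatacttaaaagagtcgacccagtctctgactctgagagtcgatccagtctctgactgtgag
Oas1a (chr5:120907476-120907775, minus strand), whose protein makes the messenger for RNase L, held 2 overlapping matches close to the start site, at -20 and -14.
Oas1a: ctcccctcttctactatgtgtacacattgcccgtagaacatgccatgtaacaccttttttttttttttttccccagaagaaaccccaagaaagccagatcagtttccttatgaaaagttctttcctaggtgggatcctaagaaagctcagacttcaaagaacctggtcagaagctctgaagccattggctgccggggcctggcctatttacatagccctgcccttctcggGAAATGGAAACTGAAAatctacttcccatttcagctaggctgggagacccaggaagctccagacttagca
The IFIT genes lie in one cluster on chromosome 19, and Ifit1 (chr19:34640639-34640938, plus strand) held 2 matches at -104 and -85.
Ifit1: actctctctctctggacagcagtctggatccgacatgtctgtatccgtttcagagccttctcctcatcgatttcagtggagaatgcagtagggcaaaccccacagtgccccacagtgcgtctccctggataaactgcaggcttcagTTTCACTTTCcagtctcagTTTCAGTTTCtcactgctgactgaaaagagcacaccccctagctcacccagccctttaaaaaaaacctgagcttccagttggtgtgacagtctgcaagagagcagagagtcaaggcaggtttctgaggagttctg
Ifit3 (chr19:34583279-34583578, plus strand) and its near copy Ifit3b (chr19:34607707-34608006, plus strand) each held 2 matches 34 bases apart, at -156 and -122 and at -188 and -154. Both matches lie in a run of 169 bases that the 2 promoters share without a difference.
Ifit3: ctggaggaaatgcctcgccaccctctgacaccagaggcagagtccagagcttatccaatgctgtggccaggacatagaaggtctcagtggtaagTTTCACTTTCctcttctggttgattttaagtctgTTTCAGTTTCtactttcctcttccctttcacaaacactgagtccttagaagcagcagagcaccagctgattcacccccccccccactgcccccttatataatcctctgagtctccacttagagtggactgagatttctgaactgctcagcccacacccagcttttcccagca
Ifit3b: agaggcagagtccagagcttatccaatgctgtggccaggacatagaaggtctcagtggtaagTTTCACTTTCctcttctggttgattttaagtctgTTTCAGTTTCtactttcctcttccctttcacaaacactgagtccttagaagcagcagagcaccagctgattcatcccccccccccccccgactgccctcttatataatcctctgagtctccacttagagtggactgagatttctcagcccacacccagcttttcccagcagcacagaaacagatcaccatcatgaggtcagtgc
These matches describe letters in a window and were not tested as binding sites. Reads that map to more than 1 place were counted at each place, so the levels of Ifit3 and Ifit3b, Ifit1 and Ifit1bl1, and Oas1a and Oas1g are uncertain as separate values. Dtx3l and Parp9 overlap at their ends on opposite strands of chromosome 16; counting was by strand.

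The libraries held 13025549 to 46842646 counts. Levels are given as CPM, that is, counts scaled to a common library total, the usual unit of RNA-seq. The labels of cells were checked against marker genes: 10 NK markers summed to 12537 to 14103 CPM in NK only libraries, 11973 to 12785 CPM in fresh libraries, 34.0 to 124 CPM in allografts, 300.5 to 598 CPM in co-cultures and 17.7 to 19.9 CPM in Panc02. Epithelial markers summed to 637 to 1588 CPM in allografts, 2892 to 2992 CPM in co-cultures and 2951 to 2981 CPM in Panc02. In such bulk libraries fewer cells of a type and less RNA per cell cannot be told apart.

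The summed level of the 36 genes averaged 1143 ± 30.7 CPM in NK only libraries and 1516 ± 38.5 CPM in fresh libraries (SD, n = 4 each). It averaged 1179 ± 340 CPM in allografts (n = 8), 386 ± 35.3 CPM in co-cultures of female NK cells, 264 ± 15.6 CPM in those of male NK cells and 150 ± 4.28 CPM in Panc02 (n = 2 each). Different genes made up these sums. Per kilobase of exon, the highest level among the 36 belonged to Samd9l, a restrictor of translation and virus growth, in NK only (54.5) and fresh libraries (55.9 CPM per kilobase). Bst2, the tetherin that holds budding virus at the cell surface, was highest per kilobase in allografts (129.8), co-cultures (41.8) and Panc02 (27.6), with Ifi27l2a next in allografts (100.1).

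**Figure D1:**
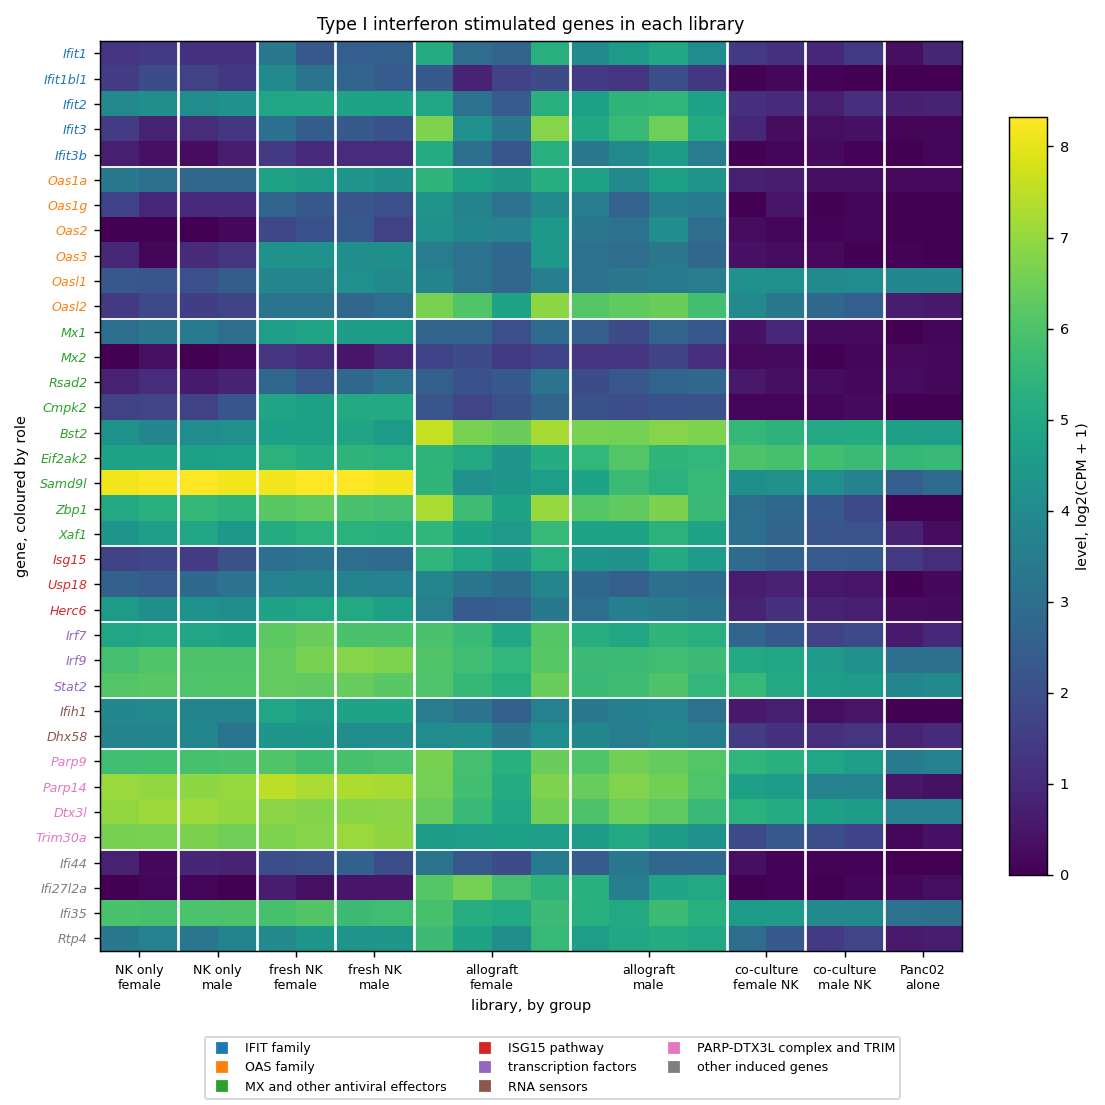
Heat map of log2(CPM + 1) for the 36 genes (lines, grouped by role) in the 22 libraries (columns, grouped by sample type). Each gene is to be read along its own line, since gene length is not corrected; Ifit3b, Oas2 and Oas3 are low in co-culture and Panc02 columns, while Samd9l and Dtx3l are highest in NK cell columns.

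The NK only against fresh comparison asked how 24 h of culture with IL-2 altered the module in NK cells. Of the 36 genes, all tested, 31 were lower in NK only than in fresh libraries and 2 were higher, where 22% and 23.1% of 19623 genes were lower and higher and 45.2% were either (edgeR's quasi-likelihood test, Benjamini-Hochberg adjusted p under 0.05 over all genes). The median log2 fold change of the members was -1.06, against 0.01 over all genes. All 5 IFIT genes, all 6 OAS genes, all 3 ISG15 pathway genes and both RNA sensors fell, as did 8 of 9 antiviral effectors. The calls of Ifit3b, Ifi27l2a and Trim30a were lost without single libraries of either condition, with adjusted p (edgeR) up to 0.115, 0.133 and 0.209.

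Oas3, which senses long double-stranded RNA, had 0.957 and 0.111 CPM in female and 1.02 and 1.43 CPM in male NK only libraries, against 18.0 and 18.5 CPM in female and 16.9 and 16.6 CPM in male fresh libraries. Every fresh library stood far above every NK only library, and the log2 fold change was -4.55 ± 0.34 (SE; edgeR adjusted p = 1.34e-06). Fold changes come from the fit, which scales libraries by TMM factors beside their totals, and so differ a little from ratios of CPM. Cmpk2, a mitochondrial nucleotide kinase gene, had 2.12 and 2.32 CPM in female and 2.04 and 3.68 CPM in male NK only libraries, against 27.8 and 25.6 CPM in female and 33.0 and 32.7 CPM in male fresh libraries. Its log2 fold change was -3.45 ± 0.17 (edgeR adjusted p = 8.17e-11), with no overlap. Rsad2, its neighbour on chromosome 12, encodes viperin, which makes a chain-terminating nucleotide. It had 0.684 and 1.08 CPM in female and 0.520 and 0.726 CPM in male NK only libraries, against 5.99 and 3.76 CPM in female and 5.98 and 8.01 CPM in male fresh libraries. Again no NK only library reached a fresh one (log2 fold change -2.86 ± 0.28; edgeR adjusted p = 4.60e-07).

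Ifit1, which binds viral RNA caps, had 1.37 and 1.66 CPM in female and 1.32 and 1.27 CPM in male NK only libraries, against 9.14 and 3.92 CPM in female and 4.55 and 4.87 CPM in male fresh libraries. The fresh libraries were all higher, female 1 the most, and the log2 fold change was -1.89 ± 0.28 (edgeR adjusted p = 3.59e-05). Isg15 had 2.05 and 2.41 CPM in female and 1.80 and 3.19 CPM in male NK only libraries, against 7.29 and 8.06 CPM in female and 7.10 and 6.56 CPM in male fresh libraries. These groups did not overlap either (log2 fold change -1.51 ± 0.22; edgeR adjusted p = 3.58e-05). Usp18, which strips ISG15 from proteins and restrains the receptor, fell by 0.99 on the log2 scale. Oas2 had no count in 3 of 4 NK only libraries and 0.141 CPM in male 5, against 2.10 to 3.90 CPM in fresh libraries.

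The transcription factors differed among themselves. Irf7, the amplifier of type I interferon production, had 29.3 and 31.9 CPM in female and 29.4 and 27.2 CPM in male NK only libraries, against 73.9 and 83.8 CPM in female and 60.4 and 59.7 CPM in male fresh libraries. All NK only values lay below all fresh ones (log2 fold change -1.12 ± 0.07; edgeR adjusted p = 3.30e-09). Irf9, the DNA-binding subunit of ISGF3, had 56.5 and 66.5 CPM in female and 62.9 and 63.0 CPM in male NK only libraries, against 78.2 and 99.4 CPM in female and 111 and 103 CPM in male fresh libraries. The fall was smaller and without overlap (log2 fold change -0.54 ± 0.08; edgeR adjusted p = 2.85e-05). Stat2, the other partner in ISGF3, had 67.4 and 72.8 CPM in female and 64.3 and 66.6 CPM in male NK only libraries, against 79.1 and 76.8 CPM in female and 82.3 and 72.3 CPM in male fresh libraries. Female 2 of the NK only group reached the lowest fresh library, and Stat2 was not called (log2 fold change -0.09 ± 0.07; edgeR adjusted p = 0.273).

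Of the members, 2 moved against the rest. Dtx3l, a ubiquitin ligase that works with PARP9, had 125 and 136 CPM in female and 138 and 125 CPM in male NK only libraries, against 116 and 109 CPM in female and 114 and 117 CPM in male fresh libraries. The groups did not overlap, and the log2 fold change was 0.30 ± 0.06 (edgeR adjusted p = 0.000802). Ifi35 had 60.7 and 59.2 CPM in female and 61.6 and 63.3 CPM in male NK only libraries, against 58.5 and 66.4 CPM in female and 51.2 and 53.2 CPM in male fresh libraries. Female 2 of the fresh group was the highest of all, and the log2 fold change of 0.20 ± 0.07 passed in this fit (edgeR adjusted p = 0.0202) but not with DESeq2 or its size factors, nor without fresh female 1, fresh male 4 or NK only male 5 (edgeR adjusted p 0.0628 to 0.0912). Samd9l (0.07; edgeR adjusted p = 0.394) and Parp9 (0.01; edgeR adjusted p = 0.913) were not called.

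**Figure D2:**
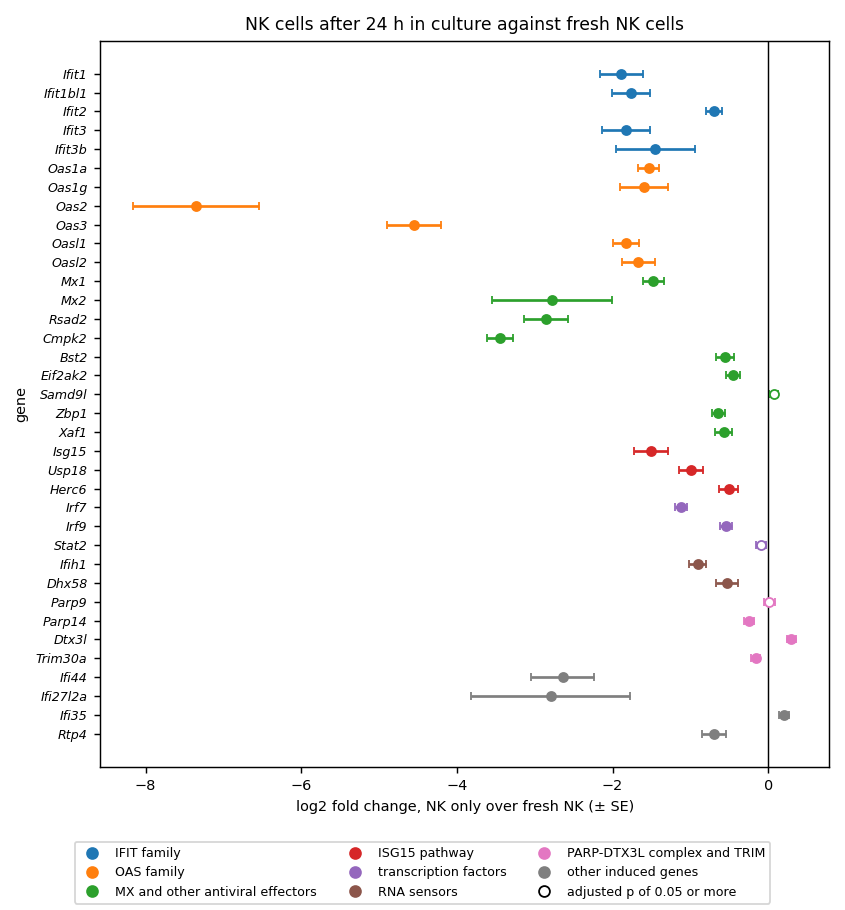
Log2 fold change of NK only over fresh NK libraries (x axis) for the 36 genes, with bars of 1 SE; filled points had an adjusted p under 0.05 and open points did not. Most points lie left of 0, Oas2 and Oas3 farthest, and Dtx3l and Ifi35 are the filled points to the right.

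Genes listed as markers of some other blood cells moved in the same comparison. The lists were not checked for genes that NK cells express themselves, such as Itgam or Itgax. Their sums are therefore not amounts of those cells. The 7 dendritic cell markers summed to 268 to 342 CPM in NK only libraries and 513 to 684 CPM in fresh libraries; Siglech was at 0 in every one of them, and Flt3 averaged 0.690 CPM in NK only and 12.5 CPM in fresh libraries. The 6 erythroid markers summed to 198 to 374 CPM in NK only and 607 to 1430 CPM in fresh libraries, and the 5 B cell markers to 1.27 to 5.08 CPM in NK only and 9.61 to 19.9 CPM in fresh libraries. The 11 macrophage markers summed to 234 to 324 CPM in NK only and 378 to 455 CPM in fresh libraries, with 3 to 6 of them at 0 in NK only and 0 to 5 in fresh libraries. Of 7 macrophage markers tested, 3 were lower and 4 not called. T cell markers overlapped, at 17.2 to 20.8 CPM in NK only and 14.7 to 24.0 CPM in fresh libraries. So did neutrophil markers, at 11.9 to 198 CPM in NK only and 17.0 to 294 CPM in fresh libraries. The part of these cells in the fall of the module was not tested. Of 5 epithelial markers, 4 were higher in NK only than in fresh libraries and 1 was not called. Among all genes 23.1% were higher, and the source of the epithelial signal was not tested. Sorted NK cells and cultured cells also went through different RNA extraction per the labels' protocols, so culture and extraction cannot be told apart.

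By donor sex the module differed little in NK cells alone. In fresh libraries 2 members were higher and 0 were lower in female than in male NK cells, where 4.03% and 4.57% of genes were higher and lower and 8.59% were called in all; the members' share is near this background. Ifit1bl1, an IFIT paralog, had 14.4 and 8.14 CPM in female against 5.59 and 4.30 CPM in male fresh libraries (log2 fold change 1.19 ± 0.33; edgeR adjusted p = 0.0342), and Irf7 differed by 0.37 ± 0.10 (edgeR adjusted p = 0.0337). Ifit1bl1 lost its call without female 1, male 4 or male 5 (edgeR adjusted p 0.0866 to 0.463; log2 fold change 0.63 without female 1), and Irf7 without any 1 of the 4 fresh libraries (0.0972 to 0.205). In NK only libraries 0 of 36 members were called by edgeR (4 at an unadjusted p under 0.05), where 0.0764% of genes were (0.0306% higher and 0.0459% lower), and 0 by DESeq2.

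For Zbp1, a sensor of Z-form nucleic acids that triggers necroptosis, the fall with culture was called as different by sex in the main fit. It had 31.6 and 37.9 CPM in female NK only libraries against 72.2 and 75.4 CPM in female fresh libraries, and 46.0 and 41.1 CPM in male NK only libraries against 59.8 and 55.7 CPM in male fresh libraries. The fall was larger in female cells by 0.68 ± 0.15 on the log2 scale (interaction -0.68, edgeR adjusted p = 0.0377). Zbp1 was the 1 member called of 36, which is near the background. Of all genes 1.65% were called, 0.479% upwards and 1.17% downwards (94 and 229 genes). That balance depended on the fit, with 209 up and 186 down under DESeq2's size factors, 506 and 396 with DESeq2, and 95 and 39 without fresh female 1. For Zbp1 the adjusted p was 0.0668 to 0.153 without fresh female 1, NK only female 1, fresh male 4, NK only male 4 or fresh male 5.

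The next comparison set co-cultures of NK cells and Panc02 against Panc02 cultured without NK cells. All co-cultures also had 24 h of IL-2, and no treatment is given for Panc02 alone. Effects of NK cells and of IL-2 culture therefore cannot be told apart here. Of the 36 genes, 27 had enough counts to be tested, and 21 were higher, 0 lower and 6 not called, where 12.2% of 18172 genes were higher, 6.12% lower and 18.3% either. The filter keeps a gene that is high in either group, so the tested members are not all members. The 9 members left out, Ifit1bl1, Ifit3b, Oas1g, Oas2, Oas3, Mx2, Cmpk2, Ifi44 and Ifi27l2a, averaged under 0.2 CPM in co-cultures and in Panc02. Ifit2 (log2 fold change 0.56), Ifit3 (2.02), Oas1a (1.27), Mx1 (2.78), Rsad2 (0.50) and Dhx58 (0.71) were tested and not called.

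Parp14, an ADP-ribosyltransferase, had 25.4 and 22.9 CPM in co-cultures with female and 11.7 and 11.6 CPM with male NK cells, against 0.427 and 0.285 CPM in Panc02. Every co-culture lay far above Panc02, those with female NK cells highest (log2 fold change 5.59 ± 0.18; edgeR adjusted p = 4.42e-15). Oasl2, an OAS-like protein gene, had 14.1 and 9.15 CPM with female and 5.82 and 4.60 CPM with male NK cells, against 0.598 and 0.499 CPM in Panc02. The groups did not overlap (log2 fold change 3.86 ± 0.25; edgeR adjusted p = 1.95e-10). Zbp1 had 7.06 and 5.92 CPM with female and 3.87 and 2.56 CPM with male NK cells, against 0.0427 and 0 CPM in Panc02. With 2 counts in both Panc02 libraries together, its ratio of summed counts was 219 (95% counting interval 60.3 to 1808). The interval takes counts as independent, but the mates of a fragment were counted separately, so it is too narrow. Ifih1, the sensor MDA5 of long double-stranded RNA, had no count in Panc02 and was at least 12.6-fold higher in co-cultures, set against 3 counts over the Panc02 group.

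Parp9, the partner of Dtx3l, had 43.2 and 38.4 CPM with female and 29.4 and 24.6 CPM with male NK cells, against 10.0 and 11.8 CPM in Panc02. All co-cultures were above both Panc02 libraries (log2 fold change 1.66 ± 0.10; edgeR adjusted p = 3.44e-11).

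The ISGF3 genes Irf9 and Stat2 rose too, as did Irf7. Irf9 had 31.3 and 29.3 CPM with female and 21.3 and 17.6 CPM with male NK cells, against 7.22 and 7.29 CPM in Panc02. No co-culture came near Panc02 (log2 fold change 1.79 ± 0.10; edgeR adjusted p = 2.37e-11). Stat2 had 46.7 and 31.6 CPM with female and 23.7 and 23.4 CPM with male NK cells, against 13.1 and 14.8 CPM in Panc02 (log2 fold change 1.17 ± 0.15; edgeR adjusted p = 0.000379). Female 1 was the highest and there was no overlap. Irf7 had 5.59 and 3.80 CPM with female and 2.15 and 2.56 CPM with male NK cells, against 0.534 and 0.926 CPM in Panc02 (log2 fold change 2.25 ± 0.29; edgeR adjusted p = 6.30e-06). Isg15 had 6.55 and 4.98 CPM with female and 4.22 and 4.14 CPM with male NK cells, against 1.69 and 1.14 CPM in Panc02 (log2 fold change 1.84 ± 0.22; edgeR adjusted p = 2.73e-06). For both genes the co-cultures stood above both Panc02 libraries. Among the other called members, Xaf1, which favours apoptosis, rose by 3.31 on the log2 scale, Rtp4 by 2.64, Dtx3l by 1.38, Bst2 by 0.64, and the kinase PKR gene Eif2ak2 by 0.33. Ifit1, Oasl1, Usp18 and Herc6 lost their calls without Panc02 replicate 1 (edgeR adjusted p 0.373, 0.152, 0.191 and 0.0631), Oasl1 and Herc6 also without Panc02 replicate 2, and Ifit1 and Oasl1 without the co-culture with male 5. Stat2 (adjusted p = 0.0639), Dtx3l, Bst2 and Eif2ak2 were not called in a joint edgeR fit with the allografts, at nearly the same fold changes. Ifit1 and Oasl1 were not called in that joint fit either (edgeR adjusted p 0.807 and 0.999), nor with DESeq2 (DESeq2 adjusted p 0.0706 and 0.0864).

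Co-culture RNA included NK RNA. Over 296 genes seen in NK only libraries and at most 0.05 CPM in Panc02, co-cultures held a median of 2.71% and 3.35% of the NK only level where the NK cells were female, against 2.05% and 1.72% where they were male. Setting each member's NK only level at that share gives the level NK cells would bring if they kept their NK only expression. This amounted to 0.612% of the co-culture level of Oasl2, 1.15% of Isg15, 4.08% of Parp9, 5.35% of Stat2 and 6.13% of Irf9. It was 17.3% for Parp14, 20.7% for Irf7, 45.9% for Samd9l, 77.5% for Ifih1 and 81.2% for Trim30a. The co-culture level of Oasl2 was 14.0 times the sum of this NK part and the Panc02 level, that of Parp14 5.18 times and that of Isg15 3.38 times. In all 4 co-cultures 11 members stood at over 2 times the sum, whereas 16 members had a mean level under 2 times it. Among the 11, Oas2 (0.108 CPM) and Ifi44 (0.114 CPM) were near the floor in co-cultures. Usp18 was low too (0.529 CPM), and stood at 2.02 and 2.05 times the sum with male NK cells. The share of all genes over 2 times the sum was not computed, so these counts have no background to be set against. With the NK part taken off, 16 of 25 tested members were still higher and 0 lower, where 8.06% of 17704 genes were higher and 4.98% lower; Ifit1, Usp18, Herc6 and Trim30a lost their call and Ifih1 could not be tested. In which of the cell types the members changed cannot be told apart.

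**Figure D3:**
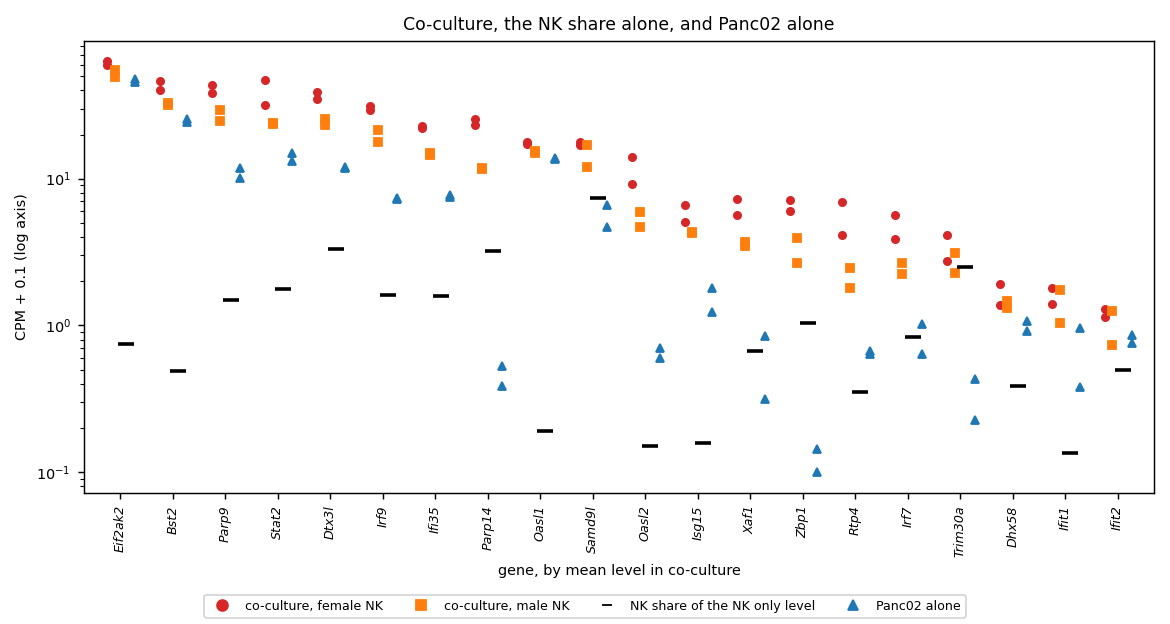
CPM + 0.1 on a log axis for the 20 members with a mean of at least 1 CPM in co-culture: co-cultures with female and with male NK cells, the NK part at the NK only level, and Panc02. Oasl2, Isg15 and Bst2 in co-culture lie far above the NK part, while for Trim30a the NK part comes close to the co-culture level.

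Between co-cultures with female and with male NK cells, 8 of 27 tested members were higher and 0 lower with female NK cells, where 0.985% of genes were higher and 0.154% lower. Parp14 (log2 fold change 1.02 ± 0.12; edgeR adjusted p = 4.32e-05) and Oasl2 (1.13 ± 0.20; edgeR adjusted p = 0.00451) had the values given before, with both female libraries above both male ones. Rtp4, an interferon-induced antiviral gene, had 6.86 and 4.02 CPM with female against 1.69 and 2.36 CPM with male NK cells. It had the largest fold change of the 8 (1.38 ± 0.28; edgeR adjusted p = 0.0141). Irf9 differed by 0.61 ± 0.10 (edgeR adjusted p = 0.00255), Dtx3l by 0.57 ± 0.09, Parp9 by 0.57 ± 0.10 and Ifi35 by 0.60 ± 0.10. Bst2 had 46.1 and 40.4 CPM with female against 31.8 and 32.8 CPM with male NK cells (0.39 ± 0.08; edgeR adjusted p = 0.0138). Stat2 (0.70; edgeR adjusted p = 0.0893), Zbp1 (0.99; edgeR adjusted p = 0.0586), Irf7 (0.96; edgeR adjusted p = 0.118) and Isg15 (0.43; edgeR adjusted p = 0.461) were not called.

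The NK share was also larger with female NK cells, 3.03 ± 0.46% against 1.88 ± 0.23% with male NK cells (SD, n = 2 each), and NK markers summed to 533 ± 93.0 CPM against 324 ± 32.8 CPM. With each library's NK part taken off, 8 members were higher and 0 lower, where 0.412% of genes were higher and 0.0452% lower, with Parp14 at 1.11, Oasl2 at 1.15 and Irf9 at 0.64. Whether more NK cells per Panc02 cell moved the Panc02 levels was not tested. The count was 3 without male replicate 5, where Oasl2, Irf9, Parp9, Ifi35 and Bst2 lost their calls (edgeR adjusted p 0.0640 to 0.125), and 5 without female replicate 1, where Oasl2, Bst2 and Rtp4 did. Bst2 and Rtp4 also lost theirs without male replicate 4, while Parp14 and Dtx3l were called in each of these fits.

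**Figure D4:**
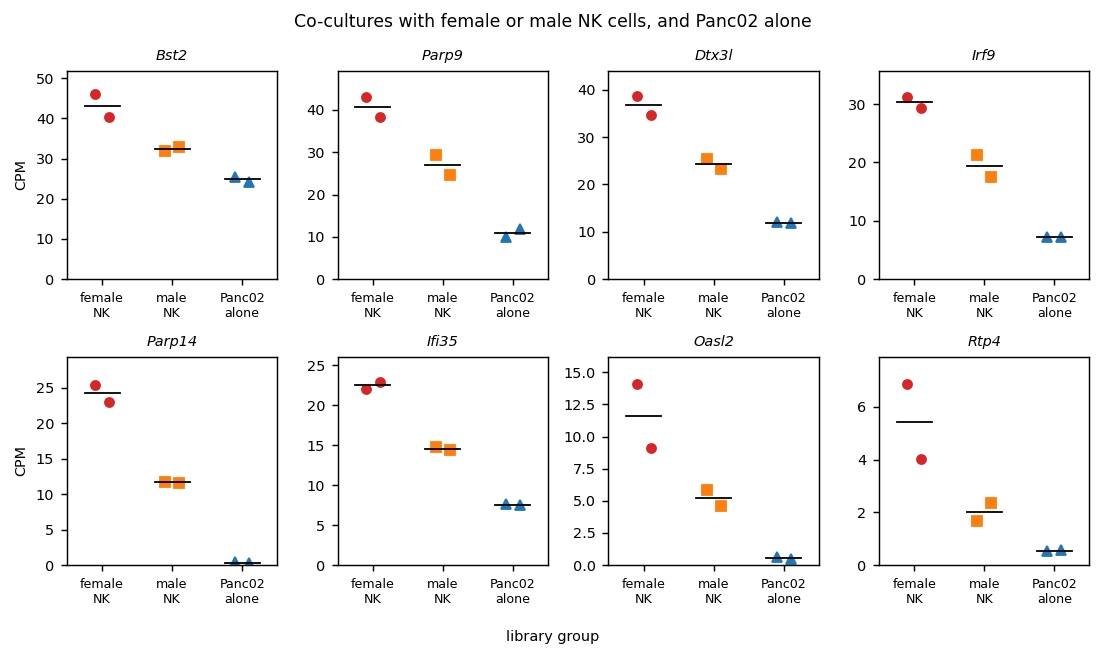
CPM of the 8 members called between co-cultures with female (left) and male (middle) NK cells; points are libraries and lines are means of 2, with Panc02 alone at the right. In every panel both female points lie above both male points.

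In allografts, tumours grown in mice, 34 of 36 members were higher than in cultured Panc02 and 0 lower, where 38.8% of 23264 genes were higher, 23.3% lower and 62.1% either. The median log2 fold change of the members was 6.05, against 0.42 over all genes. Allografts and the other libraries came in separate count tables, and host cells add their own RNA, so tissue, table and host cells cannot be told apart. The 11 macrophage markers summed to 3951 to 8230 CPM in allografts and 24.3 to 25.6 CPM in Panc02, and their part was not tested.

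Zbp1 had 26.5, 73.6 and 151 CPM as the lowest, median and highest of 8 allografts, against 0.0427 and 0 CPM in Panc02. Its ratio of summed counts was 3745 (95% counting interval 1037 to 30928). Mates of a fragment were counted separately, so this interval too is too narrow. Oas1g had 5.09, 10.7 and 18.9 CPM in allografts against 0 in both Panc02 libraries, and was at least 333-fold higher. Ifih1, with 5.01, 9.86 and 11.9 CPM, was at least 277-fold higher, and Ifi44, with 2.75, 5.79 and 9.55 CPM, at least 183-fold higher; neither had a count in Panc02. No allograft overlapped Panc02 for any of these genes.

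Irf7 had 30.4, 40.0 and 68.2 CPM as lowest, median and highest allograft, against 0.534 and 0.926 CPM in Panc02 (log2 fold change 5.97 ± 0.43; edgeR adjusted p = 1.48e-06). Isg15 had 17.8, 25.7 and 43.9 CPM in allografts against 1.69 and 1.14 CPM in Panc02 (log2 fold change 4.35 ± 0.42; edgeR adjusted p = 9.16e-06). Both were above Panc02 in all 8 tumours. Irf9 had 44.5, 52.4 and 70.9 CPM in allografts against 7.22 and 7.29 CPM in Panc02 (2.99 ± 0.21; edgeR adjusted p = 8.40e-07), and Stat2 37.5, 50.5 and 85.0 CPM against 13.1 and 14.8 CPM (2.05 ± 0.31; edgeR adjusted p = 0.000238). The 2 members not called were Oasl1, which in mice restrains translation of Irf7 (-0.50; edgeR adjusted p = 0.118), and Eif2ak2 (-0.16; edgeR adjusted p = 0.585).

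Set against co-cultures, allografts had 34 members higher and 2 lower, where 43.3% of 23744 genes were higher, 29.9% lower and 73.2% either. The median log2 fold change was 3.69 for the members and 0.35 for all genes, or 0.46 for all genes with DESeq2's size factors. Ifi27l2a had 10.8, 39.4 and 94.9 CPM in allografts, against at most 0.0876 CPM in co-cultures (log2 fold change 9.83 ± 0.67; edgeR adjusted p = 1.25e-07). Ifit3b had 3.56, 12.6 and 36.9 CPM in allografts against 0.0446 and 0.0855 CPM in co-cultures with female and 0.175 and 0.0657 CPM with male NK cells (7.49 ± 0.96; edgeR adjusted p = 2.80e-05). Ifit3, with the same promoter run, had 9.10, 40.3 and 112 CPM in allografts against 0.958 and 0.214 CPM with female and 0.233 and 0.328 CPM with male NK cells (6.99 ± 1.02; edgeR adjusted p = 0.000121). For all 3 genes the lowest tumour exceeded the highest co-culture. Oas2 had 6.90, 12.6 and 20.5 CPM in allografts against 0.0582 to 0.201 CPM in co-cultures (6.78 ± 0.43; edgeR adjusted p = 1.36e-08).

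The 2 members lower in allografts than in co-cultures were Oasl1 and Eif2ak2. Oasl1 had 5.78, 9.31 and 12.3 CPM in allografts, against 17.6 and 17.1 CPM in co-cultures with female and 14.8 and 15.4 CPM with male NK cells (log2 fold change -0.90 ± 0.18; edgeR adjusted p = 0.000597). Eif2ak2 had 19.9, 41.8 and 67.3 CPM in allografts against 63.0 and 59.3 CPM with female and 55.3 and 49.6 CPM with male NK cells (-0.60 ± 0.17; edgeR adjusted p = 0.00652). Every tumour lay below every co-culture for Oasl1, whereas 1 tumour exceeded all co-cultures for Eif2ak2.

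Among the 8 tumours the IFIT genes varied most. The highest tumour stood at a median of 10.2 times the lowest for the 5 IFIT genes, 3.30 times for OAS genes, 2.25 times for the transcription factors and 2.08 times for the RNA sensors. Ifit3 spanned 12.3-fold, from 9.10 CPM in female 3 to 112 CPM in female 4, whereas Irf9 spanned 1.59-fold. Female 3 was the lowest tumour for 21 members, with a median of 0.667 times each gene's mean over the tumours. Female 4 was the highest for 16 members and female 1 for 11. B cell markers summed to 268 CPM in female 3 and 7.28 to 19.0 CPM in the other tumours, skeletal muscle markers to 27209 CPM in female 4, and macrophage markers to 8230 CPM in female 1; their part in the member levels was not tested. In the 5 allografts with at most 5000 CPM of muscle markers, a subset chosen after seeing the data, 34 members were higher than in Panc02 and 0 lower, where 38.4% of 22226 genes were higher and 23.9% lower.

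**Figure D5:**
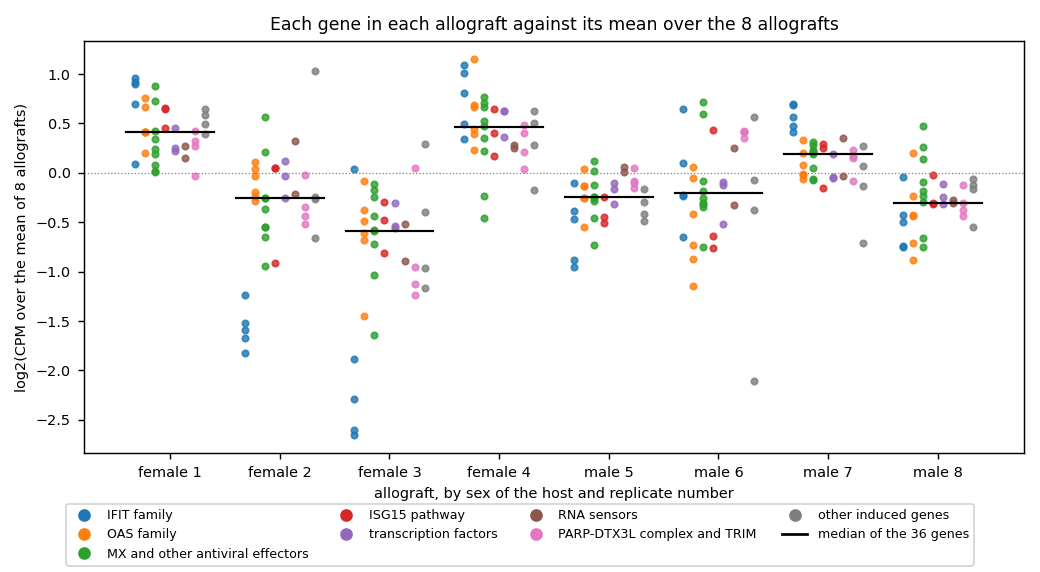
Each member's CPM in a tumour over its mean of the 8 tumours, on a log2 scale (y axis), for 4 tumours in female and 4 in male mice (x axis). Short black lines mark the median of the 36 genes in each tumour. Medians are lowest in female 3 and highest in females 1 and 4, and the IFIT genes have the widest spread.

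Host sex gave no called member: 0 of 36 with edgeR, where 0.0146% of 20560 genes were called. At an unadjusted p under 0.05 there were 5 members and 3087 genes. Ifi27l2a had 69.4, 94.9, 56.9 and 41.2 CPM in tumours of female mice against 37.6, 10.8, 28.3 and 31.6 CPM in tumours of male mice. All female values lay above all male ones, with a log2 fold change of 1.31 ± 0.38 (edgeR adjusted p = 0.212; DESeq2 adjusted p = 0.0189, the 1 member it called).

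The rest of the pathway was described from lists chosen by function. Of the 19 type I and III interferon ligands found, 0 had enough counts to be tested in any comparison, and their summed level was at most 0.332 CPM in any library. Ifnb1 had 2 counts in all allografts together and none elsewhere. Interferon-gamma was measurable: Ifng averaged 55.9 CPM in NK only and 25.8 CPM in fresh libraries (log2 fold change 1.22 ± 0.11; edgeR adjusted p = 2.95e-07). It averaged 1.14 CPM in allografts and 3.06 CPM in co-cultures, with no count in Panc02. Set against 3 counts over that group, Ifng was at least 33.9-fold higher in allografts and at least 90.8-fold higher in co-cultures. Which interferon, if any, the members followed was not tested.

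Of the receptor genes, Ifnar1 averaged 189 CPM in NK only and 129 CPM in fresh libraries (log2 fold change 0.66), and Ifnar2 64.1 CPM in NK only and 45.6 CPM in fresh libraries (0.60); both rose. Ifngr2, a chain of the interferon-gamma receptor, averaged 0.860 CPM in NK only and 9.85 CPM in fresh libraries (-3.44). In co-cultures over Panc02, Ifngr1 rose by 1.19, Ifnar2 by 0.52 and Ifnar1 by 0.17 on the log2 scale, while Ifngr2 was not called. The NK part was left in for these values. In allografts over Panc02, Ifnar1 rose by 1.12 and Ifnar2 by 2.01.

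The feedback inhibitors went the other way from the module in cultured NK cells: 5 of 6 rose and 1 fell. Among all genes 23.1% rose and 22% fell. Socs1, which blocks JAK kinases, averaged 163 CPM in NK only and 26.1 CPM in fresh libraries (log2 fold change 2.82). Of 14 tested genes known to prefer interferon-gamma, 6 rose and 4 fell in NK only over fresh libraries. These counts are to be set against the same shares of all genes, and Socs1 is in this list too. In co-cultures over Panc02 all 15 tested rose, where 12.2% of all genes did. Among them were Irf1 (136 CPM in co-cultures and 22 CPM in Panc02, log2 fold change 2.62) and the checkpoint ligand Cd274 (3.38). With female over male NK cells 6 of these 15 rose, including Irf1 by 0.78 and Cd274 by 1.08, where 0.985% of all genes did. Of 41 other type I interferon stimulated genes, 10 rose and 14 fell in NK only over fresh libraries, where 23.1% and 22% of all genes rose and fell, so the number that rose is near the background. In co-cultures over Panc02 31 of 39 tested rose, where 12.2% of all genes did, and in allografts over Panc02 35 rose and 2 fell, where 38.8% and 23.3% of all genes did. The NK part was left in for the co-culture counts of these lists, so NK and Panc02 RNA cannot be told apart in them. Ifitm2, a block to virus entry, fell by 4.01 and B2m rose by 0.62 in NK only libraries. Among 14 nucleic acid sensors and adaptors, 4 rose and 4 fell in NK only over fresh libraries, with Aim2 higher by 2.87 and Tlr9 lower (-4.15); these counts are near the shares of all genes.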

How the data were processed

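Polyadenylated RNA of 22 mouse libraries was sequenced with a stranded kit, per the labels' protocols. The authors deposited raw counts per gene, made with featureCounts 2.0.6 after cutadapt 4.4, HISAT2 2.2.1 and SAMtools 1.19.2 on GRCm39 per the submitters' processing notes; per the file headers, reads were counted by reverse strand on Ensembl 113, with multi-mapping reads and each mate counted on its own. Mates counted separately make counts less independent than fragments: 66.4% to 78.6% of low counts were even. The 37 mitochondrial genes were at 0. One table held 14 libraries and another the 8 allografts, unlike the labels, which place Panc02 with the allografts.

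CPM was taken on library totals. Each comparison was fitted on all genes with edgeR 4.0.16 (R 4.3.3; TMM, filterByExpr, robust quasi-likelihood F-test, Benjamini-Hochberg over all genes, adjusted p under 0.05), with DESeq2 1.42.0 as an alternative; the SE is the log2 fold change over the root of F. Fits were also run on simulated counts drawn as independent, which the counts here are not, so that run gives no assurance on this point. Folds against a group with no count used 3 counts over that group. Intervals and this floor cover counting error only. Both treat counts as independent, which separately counted mates are not. The intervals are therefore too narrow, and the folds given as "at least" may be too high. The co-culture fit used co-cultures and Panc02, the NK fit NK only and fresh libraries. The members and lists were chosen with earlier results of these data known. Values per library are given for the 4 called members with the largest fold change and at least 5 CPM, called members against the majority, and Isg15, Irf7, Stat2 and Irf9, with other members added after their values were seen. Alternatives were other scaling, no filter, single libraries left out, a replicate block, the NK part taken off and a joint fit. Protein sequences were not used here.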

Additional observations from a re-analysis of the deposited data

Results flagged for a closer look

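Of 72 sets of 4 allograft values checked (36 genes in each host sex), 4 had a tumour far from the other 3; chance gives such a gap in about 1 in 20 sets. In tumours of male mice, Ifit1bl1 was at 3.00 CPM in male 7 and 1.38 to 1.65 CPM in the others. Eif2ak2 was at 67.3 CPM in male 6 and 42.3 to 44.9 CPM in the others. Xaf1 was at 39.5 CPM in male 7 and 26.5 to 27.5 CPM in the others. In tumours of female mice, Dhx58 was at 9.03 CPM in female 3 and 15.5 to 16.2 CPM in the others. The NK only over fresh change of Zbp1 differed between female and male donors by -0.68 on the log2 scale in an interaction test. That call was lost in 5 of the fits with a single library left out (edgeR adjusted p 0.0668 to 0.153).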

How the results depend on the processing

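No called fold change of a member changed sign under any alternative run. The balance of all genes higher and lower did turn in some fits. NK only over fresh had 4537 higher and 4325 lower, against 4133 and 4658 with DESeq2's size factors, 3883 and 4508 with DESeq2, and 3976 and 4156 without NK only female replicate 2; the sex difference in the change is given in the report, and NK only female over male had 6 and 9, against 12 and 11 with 12 libraries. NK only over fresh: 1 member was higher with DESeq2's size factors and 1 with DESeq2, and 1 to 2 higher and 28 to 30 lower (7636 to 8660 genes called) when single libraries were left out. Fresh female over male: 0 members were higher in a fit of 12 libraries; 1 was lower with DESeq2's size factors, 1 without the filter and 2 with DESeq2; leaving out libraries gave 0 to 3 higher, 0 to 1 lower and 537 to 1918 genes. NK only female over male: 1 member was lower without the filter; 109 genes were called without it, 39 with DESeq2 and 23 with 12 libraries; leaving out libraries gave 0 to 1 lower and 18 to 29 genes. Sex difference in the change: 2 members were lower without the filter; 872 genes were called without it, 902 with DESeq2 and 490 with the replicate block; leaving out libraries gave 0 to 1 and 115 to 612 genes. Co-culture over Panc02: 851 genes were called in a joint fit, and leaving out libraries gave 17 to 22 members (17 without Panc02 replicate 1) and 1527 to 3530 genes. Co-culture by sex: 422 genes were called without the filter and 81 with the NK part taken off; members higher were 12 without the filter; leaving out libraries gave 3 to 9 members and 97 to 215 genes. Allografts over Panc02: 1 member, Oasl1, was lower in the joint fit; leaving out libraries kept the count at 34 and gave 10357 to 14534 genes. Host sex: 1 member was higher with DESeq2; 14 genes were called without the filter, 549 with DESeq2 and 0 with little muscle only, and 0 to 4 with libraries left out. The cause of these shifts was not tested. With the replicate block, 2 members were higher and 30 lower in NK only libraries (8714 genes); same-numbered libraries deviated together with r of 0.029 in female and 0.237 in male cells over 11574 genes, so the numbers were not taken as pairs.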
